A study of Homo sapiens with 12 samples.

Results

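The cytotoxic granule effector genes examined here were 10 of the 17589 genes in the expression table, chosen by symbol: the granzymes GZMA, GZMB, GZMH, GZMK and GZMM, the pore-forming proteins PRF1 (perforin) and GNLY (granulysin), the granule membrane protein NKG7, the granule proteoglycan SRGN (serglycin) and the granzyme-activating protease CTSC (cathepsin C). They were measured by RNA-seq in YT, a human NK-like cell line labelled as lacking CD16, after lentiviral transduction, sorting of eGFP-positive cells and expansion, with no stimulus added. The CTRL group carried eGFP alone. The hnCD16 group carried a high-affinity CD16a made resistant to cleavage, with its natural tail. The FR1 group carried the hnCD16-2B4-DAP10-CD3ζ fusion receptor, and the FR2 group the same receptor without 2B4 (hnCD16-DAP10-CD3ζ). All 4 groups share the lentiviral backbone with its constitutive promoter and eGFP, and each construct is represented by a single sorted population as far as the methods state. Each group had 3 replicates, 12 libraries in all, and the methods, which describe in vitro data in general as coming from independent experiments, do not say whether the RNA-seq replicates were separate cultures. Where they were not, p-values measure only the spread between these samples, which may be technical. In bulk RNA, fewer cells that express a gene and less RNA per cell cannot be told apart.

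NK cells and cytotoxic T cells kill by releasing preformed granules at the contact with a target cell. Perforin opens the target membrane and lets granzymes, a family of serine proteases, into the cytosol, where GZMB starts apoptosis by cutting caspases and their substrates at acidic residues and GZMA, a tryptase, acts on other substrates. Inside the granule, granzymes are made active by CTSC, which removes their terminal dipeptide, and are held by the sulfated sugar chains of SRGN.

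The promoters shown here are those of GZMB and PRF1, which were far higher in FR1 and FR2, of GZMH, the neighbour of GZMB that was higher with it, and of GZMA, which was lower. Each is the 250 bases before the RefSeq start (GRCh38.p14), 5′ to 3′ on the strand of the gene, and RefSeq promoters were matched for 7 of the 10 genes. Capitals mark matches on either strand to a RUNX hexamer (TGTGGT), an AP-1 site (TGANTCA) or an ETS core (CAGGAA).
GZMB, chr14:24634191-24634440, minus strand: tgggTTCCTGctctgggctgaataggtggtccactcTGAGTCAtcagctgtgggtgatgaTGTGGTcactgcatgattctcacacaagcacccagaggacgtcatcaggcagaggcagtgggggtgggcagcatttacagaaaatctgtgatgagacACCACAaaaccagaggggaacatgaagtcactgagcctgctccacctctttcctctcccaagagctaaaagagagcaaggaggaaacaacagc
GZMH, chr14:24609686-24609935, minus strand: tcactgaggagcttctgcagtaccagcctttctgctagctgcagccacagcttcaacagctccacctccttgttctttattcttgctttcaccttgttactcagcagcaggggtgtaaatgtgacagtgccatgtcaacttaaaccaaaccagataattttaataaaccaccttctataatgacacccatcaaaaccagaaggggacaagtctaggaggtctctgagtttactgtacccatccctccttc
PRF1, chr10:70602742-70602991, minus strand: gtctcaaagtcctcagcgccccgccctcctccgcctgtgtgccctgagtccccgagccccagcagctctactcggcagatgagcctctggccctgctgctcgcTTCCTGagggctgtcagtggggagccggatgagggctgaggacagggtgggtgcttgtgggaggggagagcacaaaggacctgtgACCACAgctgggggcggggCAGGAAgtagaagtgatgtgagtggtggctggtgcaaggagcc
GZMA, chr5:55102396-55102645, plus strand: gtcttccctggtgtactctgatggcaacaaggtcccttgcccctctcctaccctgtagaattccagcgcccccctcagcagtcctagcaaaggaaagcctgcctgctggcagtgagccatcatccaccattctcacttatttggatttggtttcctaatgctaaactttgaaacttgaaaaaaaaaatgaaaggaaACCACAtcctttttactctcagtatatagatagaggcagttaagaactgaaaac
The RUNX hexamer was found in the GZMA, GZMB, PRF1 and GNLY promoters, 4 of 7, and in 11.0% of 35116 RefSeq promoters of the same length. The ETS core was found in GZMB, PRF1 and NKG7, 3 of 7, against 24.1% of promoters, and the AP-1 site in GZMB, 1 of 7, against 6.57%. A T-box half-site (GGTGTGA, 2.76% of promoters), a STAT site (TTCNNNGAA, 6.57%) and an IRF site (GAAANNGAA, 6.88%) had 0 matches in the 7 promoters, and GZMH and CTSC held none of the 6 motifs. GZMA and GZMB thus both carried the RUNX hexamer although their transcripts differed in opposite directions between the groups. Such matches describe letters and are not binding sites.

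The libraries held 17714566 to 18729019 counts, and 3 counts, taken as the floor, corresponded to 0.149 to 0.174 CPM, a count scaled by TMM library size. FCGR3A, the gene on which the receptors are based, was absent from the CTRL libraries with 0 counts, and its counts were 453 to 480 for hnCD16, 559 to 567 for FR1 and 1012 to 1132 for FR2. The libraries formed 2 pairs of groups. Pearson r of log2(TPM + 1) across 17589 genes was 0.995 to 0.996 between CTRL and hnCD16 libraries and 0.994 to 0.996 between FR1 and FR2 libraries, but 0.864 to 0.871 over the 36 library pairs that crossed them. Genes are not independent replicates, and these r values are descriptions. The labelled NK identity was only partly seen in the markers: KLRF1 and CD2 were at the floor in every library, and the summed CPM of 12 NK cell markers was 55.7 to 57.3 for CTRL and 57.8 to 63.7 for hnCD16, against 722 to 793 for FR1 and 737 to 783 for FR2. NCAM1 and NCR1 were at the floor in every hnCD16 library, and the list holds CD244, the gene of the 2B4 domain in FR1. The FR1 and FR2 sums were mostly IL2RB (590 and 606 CPM on average) and CD244 (129 and 115 CPM), while CD7 (31.2 CPM in CTRL, 0.825 in FR1) and NCR3 (5.40 and 0.825 CPM) were lower there. The summed CPM of 8 T cell markers ran the other way, with 660 to 774 for CTRL and 743 to 801 for hnCD16, against 129 to 133 for FR1 and 157 to 169 for FR2, and CD3D, CD4, CD8A and CD8B were at the floor in every FR1 and FR2 library. CD28 went against its list, with 3.18 CPM in CTRL, 3.09 in hnCD16, 92.4 with FR1 and 119 with FR2. Of 5 B cell markers the summed CPM was 11.1 to 14.7, 9.19 to 13.4, 38.3 to 42.4 and 45.3 to 47.4 in the same order, and of 5 myeloid markers 2.85 to 4.13, 2.92 to 3.61, 5.67 to 6.86 and 9.46 to 10.3, with CD14 and MPO at the floor throughout. Every difference between FR1 or FR2 and the other groups given below moves with these marker levels. The receptor and the cell population that carried it cannot be told apart, and the part of the population in the results was not tested.

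The granule transcripts of CTRL and hnCD16 consisted mainly of CTSC, SRGN and GZMA, while those of FR1 and FR2 consisted mainly of GZMB and NKG7. The 10 genes held 0.0315% to 0.0355% of all TPM in CTRL libraries and 0.0353% to 0.0364% in hnCD16, against 0.974% to 1.01% in FR1 and 0.958% to 0.962% in FR2. GZMB was 0.412% to 0.536% of that sum in CTRL and 0.299% to 0.546% in hnCD16, and 55.3% to 56.2% in FR1 and 52.8% to 54.7% in FR2. By mean TPM over all genes, GZMB ranked 10652nd in CTRL and 10532nd in hnCD16, but 15th in FR1 and 19th in FR2.

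**Figure D1:**
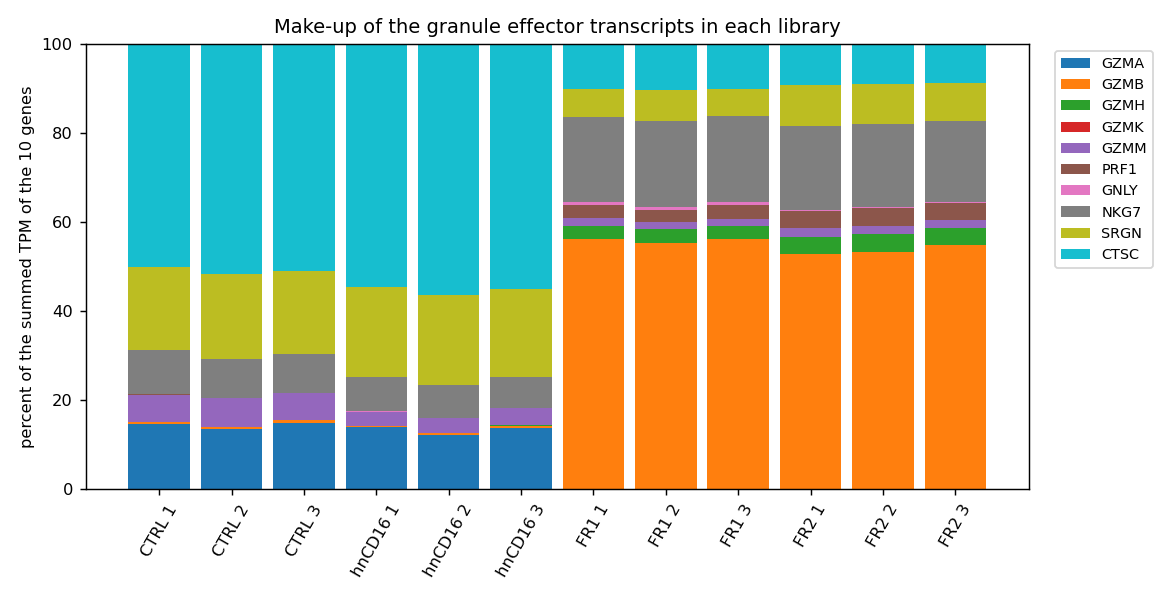
Percent of the summed TPM of the 10 genes held by each gene (vertical axis) in each of the 12 libraries (horizontal axis, group and replicate number). CTSC is the largest part in the CTRL and hnCD16 libraries, and GZMB is the largest in the FR1 and FR2 libraries, at 52.8% to 56.2%.

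Perforin, granulysin and 2 granzymes never exceeded 17 counts in a CTRL or hnCD16 library and were well detected in FR1 and FR2. GZMB, the granzyme that cleaves caspases, was at 1.46, 1.64 and 1.69 TPM in CTRL replicates 1 to 3, at 1.09, 1.46 and 1.93 TPM in hnCD16, at 5610, 5386 and 5656 TPM in FR1 and at 5078, 5096 and 5261 TPM in FR2. CTRL and hnCD16 overlapped, and every FR1 and FR2 library was far above both. PRF1, which forms the pores, was at 0.51, 0.20 and 0.33 TPM in CTRL, at 0.38, 0.31 and 0.21 TPM in hnCD16, at 299.9, 273.7 and 305.8 TPM in FR1 and at 384.6, 378.2 and 375.3 TPM in FR2. All FR2 libraries lay above all FR1 libraries for this gene. GZMH, a chymotrypsin-like granzyme, was at 0.17, 0.00 and 0.11 TPM in CTRL and at 0.17, 0.10 and 0.36 TPM in hnCD16, with 0 to 3 counts per library, and at 285.4, 290.9 and 293.8 TPM in FR1 and 359.5, 375.7 and 362.1 TPM in FR2. GNLY, a saposin-like protein that disrupts microbial membranes, was at 0.47, 0.16 and 0.00 TPM in CTRL, at 0.45, 0.22 and 0.00 TPM in hnCD16, at 72.2, 66.3 and 65.6 TPM in FR1 and at 23.4, 22.8 and 20.2 TPM in FR2. It was the member whose FR1 and FR2 libraries were farthest apart.

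The other members were present in every library of every group except GZMK. NKG7, a granule membrane protein needed for efficient degranulation, was at 34.9, 29.6 and 27.7 TPM in CTRL, at 28.5, 26.8 and 24.7 TPM in hnCD16, at 1907, 1870 and 1944 TPM in FR1 and at 1794, 1799 and 1736 TPM in FR2. GZMM, a granzyme that cuts after methionine or leucine, was at 21.3, 21.8 and 19.0 TPM in CTRL, at 11.01, 12.2 and 13.5 TPM in hnCD16, at 164.9, 154.0 and 165.2 TPM in FR1 and at 185.4, 187.5 and 175.9 TPM in FR2. For GZMM the hnCD16 libraries lay below the CTRL libraries, and FR1 and FR2 above both. SRGN was at 66.1, 66.0 and 58.4 TPM in CTRL, at 73.5, 73.0 and 69.8 TPM in hnCD16, at 613.7, 672.5 and 623.7 TPM in FR1 and at 889.4, 850.8 and 834.4 TPM in FR2. CTSC was at 177.5, 177.3 and 160.8 TPM in CTRL, at 198.5, 204.7 and 194.3 TPM in hnCD16, at 1016, 1013 and 1011 TPM in FR1 and at 890.9, 860.5 and 833.8 TPM in FR2. SRGN was thus highest in FR2 and CTSC highest in FR1. GZMA, the tryptase, was at 52.2, 46.6 and 47.4 TPM in CTRL, at 50.7, 44.3 and 48.7 TPM in hnCD16, at 8.96, 9.50 and 10.02 TPM in FR1 and at 12.9, 13.7 and 12.3 TPM in FR2, and was the only member lower in FR1 and FR2. GZMK, another tryptase, had 0, 2 and 0 counts in the CTRL replicates, 0 throughout hnCD16, 1, 0 and 1 for FR1 and 4, 1 and 2 for FR2, and did not pass the filter on low counts. Without that filter its adjusted p by edgeR was 0.0216 in FR2 against hnCD16, past the threshold, and 0.172 to 0.953 in the other 5 comparisons, while DESeq2 gave 0.0883 in FR2 against hnCD16.

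**Figure D2:**
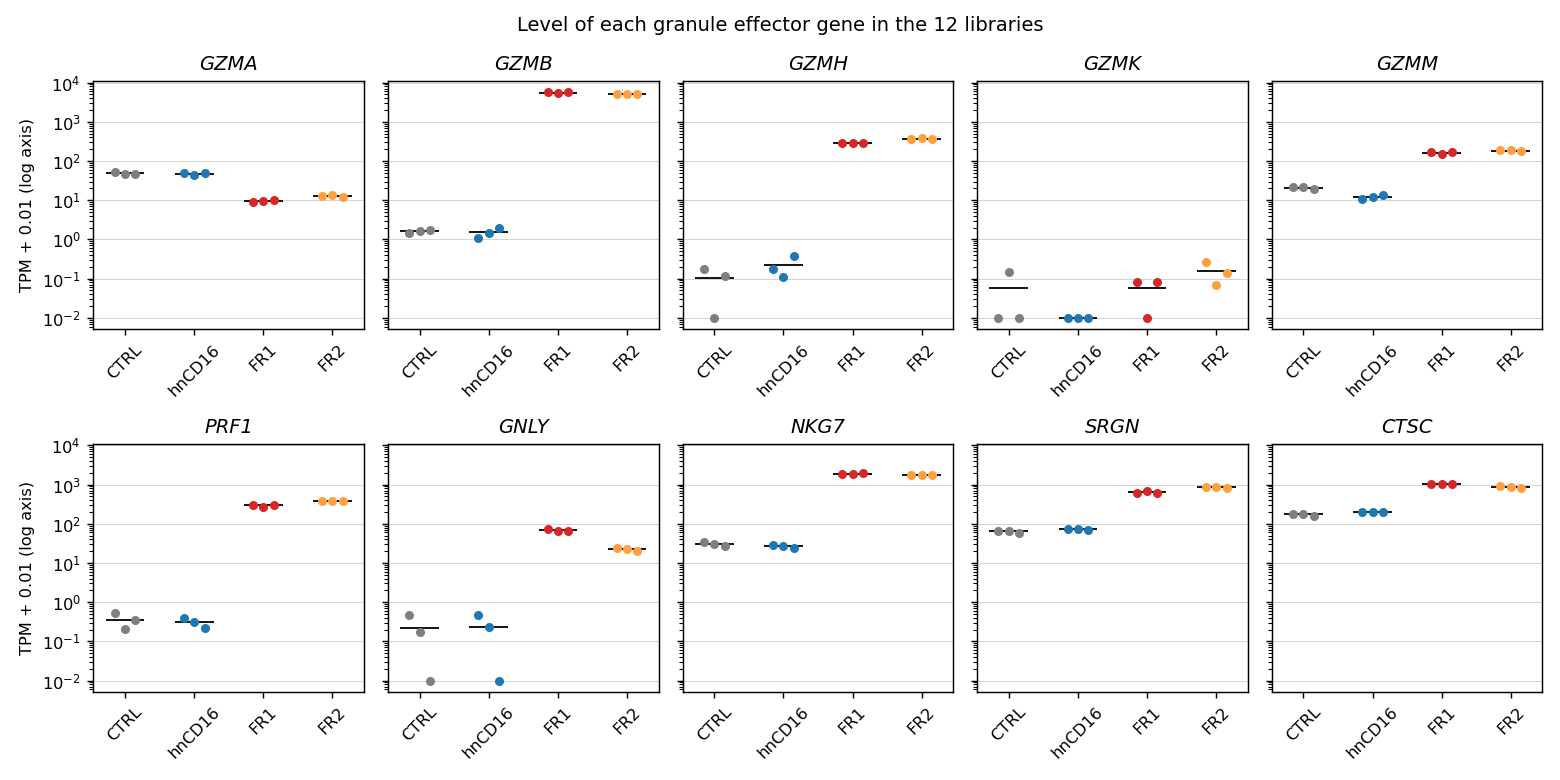
TPM plus 0.01 on a log axis (vertical) for each of the 10 genes (panels) in the 4 groups (horizontal axis, points are libraries, bars are means of 3). 8 genes are higher in all FR1 and FR2 libraries than in all CTRL and hnCD16 libraries, GZMA is lower, and GZMK stays at 0 to 4 counts.

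By mean TPM the order in CTRL and hnCD16 was CTSC, SRGN, GZMA, NKG7, GZMM, GZMB, PRF1, GNLY, GZMH and GZMK. In FR1 and FR2 it was GZMB, NKG7, CTSC, SRGN, PRF1, GZMH, GZMM, GNLY, GZMA and GZMK. Several neighbours in these orders did not differ beyond their spread. PRF1 (273.7 to 305.8 TPM) and GZMH (285.4 to 293.8 TPM) overlapped in FR1, as they did in FR2 (375.3 to 384.6 and 359.5 to 375.7 TPM), CTSC (833.8 to 890.9 TPM) and SRGN (834.4 to 889.4 TPM) overlapped in FR2, and in CTRL and hnCD16 GNLY overlapped both PRF1 and GZMH. The ratio of GZMB to PRF1 on the TPM scale was 18.5 to 19.7 in FR1 libraries and 13.2 to 14.0 in FR2 libraries. The ratio of GZMB to GZMA was 0.0215 to 0.0396 over the CTRL and hnCD16 libraries, and rose to 565 to 626 with FR1 and 371 to 429 with FR2.

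FR1 was compared with hnCD16, which has the same CD16a ectodomain and transmembrane part. In FR1 the signalling domains stand in place of the natural CD16a tail. GZMB, GZMH, PRF1, GNLY, NKG7, GZMM, SRGN and CTSC rose and GZMA fell. Of the 9 members tested, 9 were called (adjusted p up to 0.05 and a log2 difference of 1 or more in size, edgeR's quasi-likelihood test, Benjamini-Hochberg over 13657 genes), where 38.3% of all tested genes were called. Counted by direction, 8 were higher (18.7% of all tested genes) and 1 lower (19.6%). GZMH and GNLY had 10 or more counts in 0 of the 6 CTRL and hnCD16 libraries and PRF1 in 2 of 6, so they entered the test through FR1 and FR2 and their calls are no support for the count. The log2 fold change of GZMB was 11.91 (SE 0.089, adjusted p = 1.88e-22 by edgeR), the 17th highest of all tested genes. By summed counts GZMB was 3872-fold higher in FR1 (exact 95% interval 2843 to 5420, 40 counts in hnCD16), and PRF1 1025-fold (683 to 1618, 23 counts). GZMH was 1703-fold higher (730 to 5247) against 5 counts and GNLY 273-fold (125 to 745) against 6 counts. These intervals cover counting error only. The fitted log2 fold change of GZMH moved from 10.63 to 11.29 without hnCD16 replicate 3, and that of GNLY from 8.01 to 8.93 without hnCD16 replicate 1. NKG7 had a log2 fold change of 6.26 (SE 0.0893), GZMM of 3.79 (SE 0.0769), SRGN of 3.17 (SE 0.0726) and CTSC of 2.53 (SE 0.0588). GZMA fell by 2.27 on the log2 scale (SE 0.105, adjusted p = 9.28e-13 by edgeR), from a mean of 23.0 CPM to 4.78 CPM.

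FR2 against hnCD16 shares its hnCD16 libraries with the comparison before and gave its own values as follows. Again 9 of 9 tested members were called, against 39.5% of all tested genes, with 8 higher (19.6% of all tested genes) and 1 lower (19.8%). GZMH, GNLY and PRF1 entered this test too through FR1 and FR2, so their calls are no support for the count. With at least 10 counts in every library, 6 of 6 tested members were called, against 29.3% of 10758 genes. The log2 fold change was 11.78 for GZMB (SE 0.0889), 10.34 for PRF1 (SE 0.121), 6.15 for NKG7 (SE 0.089), 3.96 for GZMM (SE 0.0765), 3.59 for SRGN (SE 0.0735) and 2.24 for CTSC (SE 0.0582). By summed counts GZMH was 2151-fold higher (922 to 6627) and GNLY 88.6-fold higher (40.4 to 243), against the same 5 and 6 counts. Single libraries moved these fitted log2 values, GZMH from 10.97 to 11.63 without hnCD16 replicate 3 and GNLY from 6.38 to 7.30 without hnCD16 replicate 1. GZMA fell by 1.83 on the log2 scale (SE 0.0988, adjusted p = 8.44e-12 by edgeR).

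**Figure D3:**
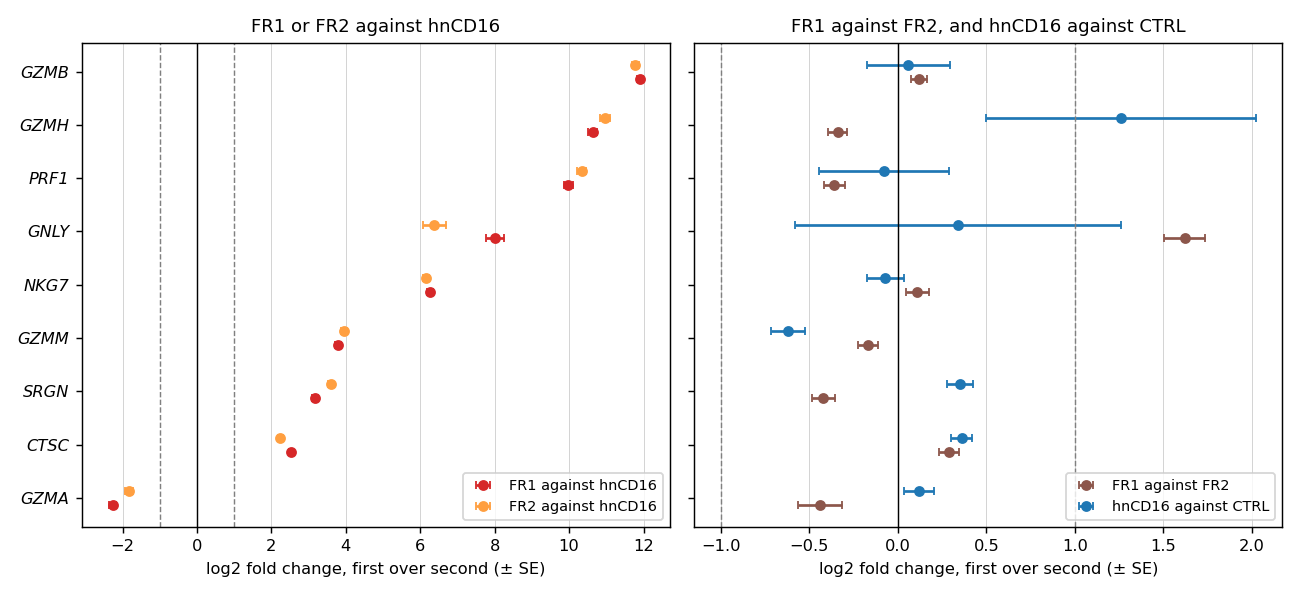
Log2 fold change of the 9 tested genes (horizontal axis, first group over second, bars are SE, dashed lines at 1 and -1). Left, FR1 and FR2 against hnCD16, from 11.91 for GZMB to -2.27 for GZMA. Right, FR1 against FR2 and hnCD16 against CTRL, where only GNLY in FR1 against FR2 passes both thresholds and the wide bars of GZMH and GNLY in hnCD16 against CTRL go with 2 to 6 summed counts.

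Against CTRL, which lacks any CD16 construct, 9 of 9 tested members were called in FR1 (38.0% of all tested genes were called) and 9 of 9 in FR2 (38.2%), and these comparisons share the CTRL libraries. In FR1 8 were higher (18.3% of all tested genes) and 1 lower (19.8%), and in FR2 8 higher (18.7%) and 1 lower (19.6%). The calls of GZMH, GNLY and PRF1, which entered the test through FR1 and FR2, are again no support for these counts. With at least 10 counts in every library, 6 of 6 tested members were called in FR1 and in FR2, against 27.6% of 10758 genes in both comparisons. The GZMB log2 fold change was 11.97 in FR1 (SE 0.0888) and 11.85 in FR2 (SE 0.0888). For PRF1 it was 9.90 with FR1 (SE 0.119) and 10.26 with FR2 (SE 0.119). NKG7 had 6.19 and 6.08, and GZMM had 3.18 and 3.35, and the CTRL level of GZMM was the higher of the 2 control levels. SRGN had 3.52 and 3.94 and CTSC 2.89 and 2.60, in the same order. GZMH, with 2 counts over the 3 CTRL libraries, was 4559-fold higher in FR1 (1262 to 37650) and 5758-fold higher in FR2 (1594 to 47555), and GNLY, with 5, was 351-fold (150 to 1082) and 114-fold (48.5 to 352) higher. The fitted log2 fold change of GNLY moved from 8.34 to 9.85 in FR1 and from 6.72 to 8.23 in FR2 without CTRL replicate 1. GZMA fell by 2.14 on the log2 scale in FR1 (SE 0.105) and by 1.70 in FR2 (SE 0.0991).

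The hnCD16 receptor without added domains was compared with eGFP alone. Of 9 tested members, 0 were called by edgeR, against 0.527% of all tested genes, and GZMM, CTSC and SRGN passed the adjusted p alone, against 43.0% of all tested genes. At an unadjusted p under 0.05 the count was 3, and DESeq2 and limma called 0. GZMM was lower in hnCD16 by a log2 fold change of -0.62 (SE 0.0958, adjusted p = 0.000127 by edgeR), with 104 to 121 counts against 164 to 195. CTSC was higher by 0.36 (SE 0.057, adjusted p = 0.000157 by edgeR) and SRGN by 0.35 (SE 0.0745, adjusted p = 0.0014 by edgeR). GZMA (0.12, SE 0.0825), GZMB (0.06, SE 0.234), PRF1 (-0.08, SE 0.368), GNLY (0.34, SE 0.921) and NKG7 (-0.07, SE 0.104) did not pass the threshold. GZMH had 5 counts in hnCD16 and 2 in CTRL, a ratio of 2.68 with an exact 95% interval of 0.438 to 28.1.

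FR1 and FR2 differ by design in the 2B4 domain, and their comparison lies within 1 pair of similar libraries. On the cell membrane, the paper reports comparable levels of the constructs by flow cytometry. In RNA, FR1 and FR2 also differ in FCGR3A counts (559 to 567 in FR1, 1012 to 1132 in FR2). Each is a single sorted population as far as the methods state. The 2B4 domain, the receptor RNA level and the population cannot be told apart here. GNLY was the only member called, 3.08-fold higher in FR1 (log2 1.62, SE 0.117, adjusted p = 4.99e-08 by edgeR), against 1.93% of all tested genes. Its counts were 547, 495 and 490 in FR1 and 177, 175 and 154 in FR2. By adjusted p alone 8 of 9 members passed, against 36.2% of all tested genes, in both directions. CTSC (log2 0.29, adjusted p = 0.000552 by edgeR) and GZMB (0.12, adjusted p = 0.0488 by edgeR) were higher in FR1. SRGN (-0.42, adjusted p = 8.54e-05 by edgeR), PRF1 (-0.36, adjusted p = 0.000163 by edgeR), GZMH (-0.34, adjusted p = 9.08e-05 by edgeR), GZMA (-0.44, adjusted p = 0.0114 by edgeR) and GZMM (-0.17, adjusted p = 0.0272 by edgeR) were lower in FR1. NKG7 (0.11, SE 0.0649, adjusted p = 0.206 by edgeR) did not pass. The pore formers thus differed in opposite directions, with granulysin higher and perforin lower in FR1. With log2(TPM + 0.1) in limma the GNLY difference stayed at 1.62 but its adjusted p was 0.0544.

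Transcript estimates differed between the groups for 3 members. The SRGN transcript NM_001321053 held 10.1% to 22.0% of the expected counts of the gene in CTRL libraries and 21.1% to 28.7% in hnCD16, but 0.164% to 0.291% with FR1 and 0.193% to 1.69% with FR2. The main SRGN transcript, NM_002727, held 71.3% to 89.9% in CTRL and hnCD16 libraries and 98.1% to 99.1% in FR1 and FR2. The CTSC transcript NM_148170 held 13.7% to 16.7% for CTRL and 13.8% to 15.5% for hnCD16, against 22.7% to 25.6% for FR1 and 19.6% to 21.0% for FR2. NKG7 transcript NM_005601 held 47.6% to 50.6% for CTRL and 45.8% to 59.7% for hnCD16, against 71.9% to 75.1% for FR1 and 76.1% to 76.8% for FR2. For each of these transcripts the FR1 and FR2 ranges lay apart from the CTRL and hnCD16 ranges. An exact permutation test of 3 against 3 cannot go below p = 0.1, so no test was made on shares. GZMB was counted almost wholly as NM_004131, 98.6% to 99.0% in FR1 and FR2, and PRF1 as NM_005041, 85.1% to 92.0% in FR1 and 91.1% to 93.0% in FR2.

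**Figure D4:**
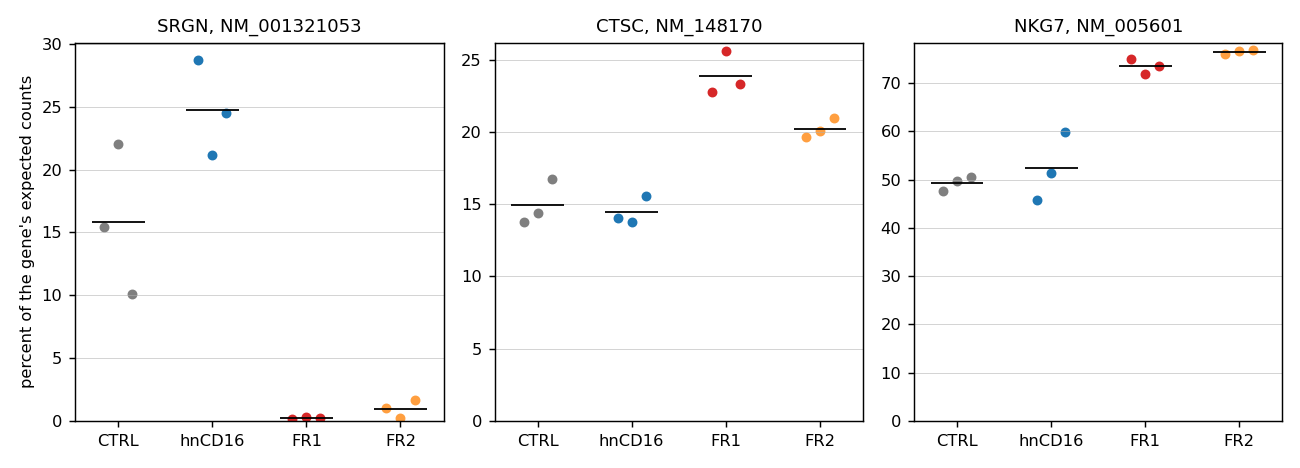
Percent of the expected counts of a gene assigned to 1 transcript (vertical axis, from 0) in the 4 groups, for SRGN, CTSC and NKG7 (points are libraries, bars are means of 3). The SRGN transcript is at 10.1% to 28.7% in CTRL and hnCD16 and at most 1.69% in FR1 and FR2, and the CTSC and NKG7 transcripts are higher in FR1 and FR2.

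The members lie at 8 places in the genome (GENCODE v44, GRCh38). GZMB (chr14:24630954-24634267) and GZMH (chr14:24606480-24609699), both on the minus strand, start 24.5 kb apart, and CTSG, the cathepsin G gene of myeloid granules, starts 33.0 kb from GZMH. In this cluster the granzymes rose while CTSG fell, from a mean of 6.02 CPM in hnCD16 to 0.0193 CPM in FR1 and 0 in FR2. GZMB and GZMH share a run of 106 bases between their longest transcripts, and 12.5% of the 25-base words of GZMB, so the division of reads between them is uncertain. No other pair of granzymes shared a 25-base word. GZMA (chr5:55102646-55110252) and GZMK (chr5:55024256-55034570) start 78.4 kb apart on the plus strand, where GZMA fell and MCIDAS, a gene of multiciliated cells 117 kb from GZMA, rose from 0.0357 CPM in hnCD16 to 5.80 in FR1. PRF1 (chr10:70597348-70602759, minus strand) overlaps PALD1 on the other strand in GENCODE v44, but the RefSeq spans of both genes do not overlap. The deposited transcripts carry RefSeq names, and strand use in counting is not stated. PALD1 stood at 1.67 to 4.43 CPM in the group means, far below PRF1 in FR1 (423 CPM) and FR2 (543 CPM). In CTRL and hnCD16 PALD1 (2.67 and 4.43 CPM) was above PRF1 (0.437 and 0.414 CPM), and its part in those few PRF1 reads was not tested. In GENCODE v44, GZMB, GZMH, GZMK, GNLY and CTSC each also overlap a gene on the other strand. No RefSeq gene that starts within 250 kb of a member and has a mean of at least 1 CPM overlapped that member. ADAMTS14, 75.2 kb from PRF1, rose with it, from 0.143 CPM in hnCD16 to 85.8 in FR1 and 149 in FR2. GNLY (chr2:85685175-85698852), GZMM (chr19:544034-549924) and SRGN (chr10:69088103-69104805) are on the plus strand and NKG7 (chr19:51371606-51372701) and CTSC (chr11:88265069-88359684) on the minus strand. Around GNLY, 0 of 9 neighbours within 250 kb were called higher and 1 lower in FR1 against hnCD16, VAMP8, a SNARE protein of vesicle fusion, which fell from 78.3 CPM to 0.327 CPM. Around NKG7, CLDND2 rose with it, from 1.13 CPM to 25.4 CPM, and SIGLEC12 fell from 15.3 CPM to 0. Around GZMM, PRSS57, another serine protease gene, fell from 112 CPM to 0.0961 CPM, and around SRGN, KIFBP fell from 30.8 CPM to 0.345 CPM. Of the neighbours of GZMM 0 of 8 were called higher and 3 lower, of SRGN 0 of 6 and 2, of NKG7 1 of 6 and 2, of PRF1 1 of 4 and 1, of GZMA 1 of 4 and 0, and of GZMB 0 of 4 and 3, where 18.7% of all tested genes were higher and 19.6% lower.

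Genes that act on granule contents were described by 6 lists, with 52 of 68 listed genes tested. In FR1 against hnCD16, 21 rose and 12 fell (18.7% and 19.6% of all tested genes). Together 33 of 52 were called, against 38.3% of all tested genes. The median log2 fold change was 0.70 over the lists and -0.01 over all genes. Of the 33, 10 had fewer than 3 libraries with 10 counts in 1 of the pairs of groups, 5 of them higher and 5 lower. They passed the filter through the pair where they were high. Their calls are no support for the count, the median or the counts of single lists. With at least 10 counts in every library 19 of 37 were called, against 27.8% of 10758 genes. In FR2 against hnCD16 24 rose and 12 fell (19.6% and 19.8% of all tested genes), in FR1 against CTRL 18 and 13 (18.3% and 19.8%), and in FR2 against CTRL 20 and 13 (18.7% and 19.6%). The same 10 genes were called in each of these comparisons and are no support for their counts. The granzyme inhibitors held the highest median, 5.75, with 3 of 4 tested genes higher and 0 lower. SERPINB9, the inhibitor of GZMB that protects the killer cell, rose from 6.74 ± 1.16 CPM in hnCD16 to 982 ± 22.5 CPM in FR1 (SD, n = 3) and stood at 850 ± 29.2 CPM in FR2. SERPINB1, an inhibitor of neutrophil proteases and GZMH, rose from 110.0 ± 5.61 CPM to 6588 ± 150.0 CPM in FR1 and stood at 7398 ± 155 CPM in FR2. The cathepsins and cystatins split, 4 of 8 higher and 3 lower, with a median of 0.85. CST7 (cystatin F), an inhibitor that limits cathepsin C, rose from 1.36 ± 0.0692 CPM to 201 ± 10.5 CPM, and CTSS, a cysteine cathepsin, from 2.25 ± 0.216 CPM to 139 ± 8.73 CPM. CTSH, an aminopeptidase able to process granzymes, fell from 57.1 ± 4.29 CPM to 0.404 ± 0.253 CPM, and CTSW, a cathepsin of NK and T cells, from 9.78 ± 0.417 CPM to 0.461 ± 0.0581 CPM.

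The sorting and granule membrane list had 2 of 14 genes higher, 3 lower and a median of -0.05 in FR1 against hnCD16. Over all tested genes 18.7% were higher and 19.6% lower. With 5 of 14 called, this list was near the 38.3% of all tested genes. CD63, a tetraspanin of granule membranes, rose with a log2 fold change of 2.31 (SE 0.0611), and AP3D1, a subunit of the AP-3 adaptor, with 1.10 (SE 0.0522). SORT1 (sortilin) fell from 58.4 ± 0.518 CPM to 0.403 ± 0.055 CPM and LAMP3 from 15.7 ± 1.45 CPM to 0.558 ± 0.236 CPM. Genes that build the chondroitin sulfate chains of serglycin had 5 of 12 higher, 2 lower (18.7% and 19.6% of all tested genes) and a median of 0.90. CHST12, which sulfates the chains, rose from 21.4 ± 0.488 CPM to 124 ± 1.65 CPM, and CHST15, another sulfotransferase, from 0.0181 CPM to 0.959 ± 0.169 CPM. CHPF, a chain polymerizing factor, fell from 7.18 ± 0.331 CPM to 0.154 ± 0.0888 CPM, and XYLT1, which starts the chains, from 39.1 ± 0.829 CPM to 14.0 ± 0.931 CPM. Of the other granule serine proteases only CTSG was tested, and it was lower. Of 13 transcription factors of granule genes, 7 were higher and 3 lower (18.7% and 19.6% of all tested genes), with a median of 1.38. TBX21, STAT4, PRDM1 and KLF2 had 0 to 5 counts in each CTRL and hnCD16 library and passed the filter through FR1 and FR2. Their calls are no support for this count or its median. IRF4 rose from 0.503 ± 0.0676 CPM to 724 ± 6.10 CPM and PRDM1 (Blimp-1) from 0.0719 ± 0.0313 CPM to 71.6 ± 1.3 CPM, while MYB fell from 706 ± 23.4 CPM to 66.1 ± 1.75 CPM and RUNX1 from 176 ± 6.04 CPM to 39.8 ± 1.74 CPM. In hnCD16 against CTRL 0 of 52 were called by edgeR (0.527% of all tested genes), and 0 of the 50 with an adjusted p by DESeq2. By edgeR 27 passed the adjusted p alone (43.0% of all tested genes) and 31 an unadjusted p under 0.05. In FR1 against FR2 1 of 52 was called, against 1.93% of all tested genes. It was KLF2, a quiescence factor named after its value was seen, which was at 1.23 ± 0.188 CPM in FR1 and 7.13 ± 0.365 CPM in FR2 (log2 -2.53, adjusted p = 2.34e-08 by edgeR).

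**Figure D5:**
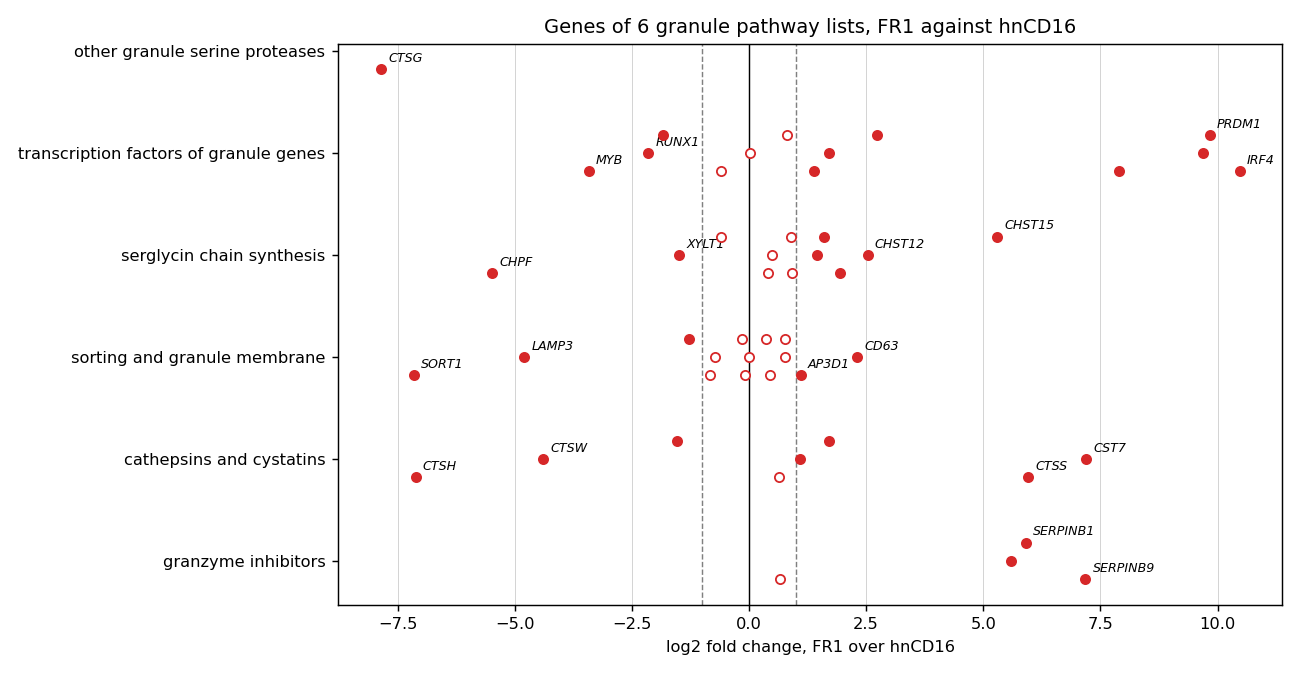
Log2 fold change of FR1 over hnCD16 (horizontal axis) for the 52 tested genes of 6 granule pathway lists (vertical axis), filled where called and open where not, with dashed lines at 1 and -1. The called granzyme inhibitors lie above 5, while the cathepsins and serglycin chain genes lie on both sides of 0.

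For 9 members, the gene most like each across the 12 libraries was sought among 12340 genes by Pearson r of log2(CPM + 1), as a description of libraries that share the split into 2 pairs. GBP2 was most like GZMB (r = 0.9999), HLA-DPA1 most like PRF1 (r = 0.9999) and KLRK1 most like NKG7 (r = 0.9997). For GZMM it was PTK2B (r = 0.9992), for SRGN B2M (r = 0.9995) and for CTSC TM7SF3 (r = 0.9994). These are not unusual values, since 978 genes had r over 0.99 with GZMB and 1019 with PRF1. GNLY and GZMA stood nearer to fewer genes, 31 and 110. MITF was most like GNLY (r = 0.9976), with means of 0.0334 CPM for CTRL, 0.0724 for hnCD16, 3.99 for FR1 and 2.04 for FR2. STRADB was most like GZMA (r = 0.9977), with 46.3, 52.8, 10.7 and 13.5 CPM in the same order.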

How the data were processed

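RNA-seq of 12 libraries, 3 each of CTRL, hnCD16, FR1 and FR2 YT cells, was analysed. The authors filtered reads with SOAPnuke, aligned them to GRCh38.p13 with HISAT2 2.1.0 and quantified them with RSEM 1.3.1. The deposited expected counts are estimates of reads per gene or transcript without normalization, and the deposited TPM values are scaled for length and depth by the authors. The sources name both ribosomal RNA depletion and oligo(dT) beads, and strand use in counting is not stated in the sources used here. RSEM can divide reads between similar genes.

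Expected counts were rounded and tested with edgeR 4.0.16 in R 4.3.3 (quasi-likelihood test, TMM, filterByExpr by group) in 1 fit of all 12 libraries, with Benjamini-Hochberg adjustment over 13657 genes in each of 6 comparisons. Genes were called at an adjusted p up to 0.05 and a log2 difference of 1 or more in size. The SE of a log2 fold change is its size divided by the square root of the F statistic. Expression is in CPM or TPM. Replicate pairs differed by more than sampling noise. The edgeR step, tested on simulated data for FR1 against hnCD16, called 200 of 200 genes changed by a log2 fold change of 2, and 1 unchanged gene of 13412 tested. The simulation used a single dispersion and changed only genes with a mean of at least 1 CPM. In the real comparison 38.3% of tested genes were called, and error control in that setting was not tested.

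The members and lists were chosen with earlier results of these data known. The text names all members, the 2 highest and 2 lowest called genes of each list in FR1 against hnCD16, the gene most like each member, examples of the genes that start within 250 kb of a member and have a mean of at least 1 CPM, and FCGR3A. Transcription factors that passed the filter through FR1 and FR2 are also named. Alternatives were limma 3.58.1 with 1 or 0.1 added to TPM before log2, DESeq2 1.42.0, other scalings and filters, fits of only 2 groups, the replicate block, no fold threshold and leaving out each library. Other deposited columns, such as FPKM, were not used here. Protein sequences were not analysed here, and the gene most like GZMH is not reported here.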

Additional observations from a re-analysis of the deposited data

How the results depend on the processing

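The 9 members were called in FR1 and FR2 against hnCD16 and CTRL under every alternative that tested them, in the same directions. A filter of at least 10 counts in every library removed the lowest genes and left 6 members and 37 pathway genes. With it, 19, 22, 17 and 19 pathway genes were called in FR1 against hnCD16, FR2 against hnCD16, FR1 against CTRL and FR2 against CTRL. Of all 10758 genes, 27.8%, 29.3%, 27.6% and 27.6% were called in the same order. In FR1 against FR2, 0 members and 0 pathway genes were called, against 0.679% of genes, since GNLY and KLF2 were not tested. Without a fold threshold, 51 pathway genes passed in FR1 against CTRL, 27 in hnCD16 against CTRL and 25 in FR1 against FR2. Of the members, 3 passed in hnCD16 against CTRL and 8 in FR1 against FR2. Over all tested genes 43.0% passed in hnCD16 against CTRL and 36.2% in FR1 against FR2, and the share for FR1 against CTRL is not given here. With limma on log2(TPM + 0.1), 0 members were called in FR1 against FR2 and 1 pathway gene in hnCD16 against CTRL, and the cause was not tested. With each library left out in turn, pathway calls in hnCD16 against CTRL ranged from 0 to 1, with 1 without CTRL replicate 1 or CTRL replicate 3. On log2(TPM + 1), the FR1 against hnCD16 values of low genes were smaller, 7.92 for GZMH, 7.82 for PRF1 and 5.83 for GNLY.

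Changes of sign concerned hnCD16 against CTRL alone, for members whose differences did not pass the threshold. GZMA was -0.02 with both limma settings. GZMB was -0.05 by library size only, -0.07 and -0.12 with limma on log2(TPM + 1) and log2(TPM + 0.1), and ranged from -0.14 (without hnCD16 replicate 3) to 0.22 with a library left out. PRF1 ranged from -0.38 to 0.34 and was above 0 without CTRL replicate 1 (0.34) or hnCD16 replicate 3 (0.16). GNLY ranged from -0.59 to 1.85 and was below 0 without CTRL replicate 3 (-0.23) or hnCD16 replicate 1 (-0.59). NKG7 ranged from -0.19 to 0.07, with 0.07 without CTRL replicate 1 and 0 without hnCD16 replicate 3.

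The correlation of the deviations of same-numbered replicates was between -0.0719 and 0.171, and no comparison had all 3 over 0.1. In hnCD16 against CTRL it was 0.159, 0.0623 and 0.171 for replicates 1 to 3. Whether same-numbered replicates were prepared together is not stated. With the replicate number as a block, 9 members and 33 pathway genes were called in FR1 against hnCD16, as without it, and counts of called members and pathway genes were the same in the other comparisons. By library size only, the median of all genes shifted to -0.22 in FR1 against CTRL, -0.17 in FR2 against CTRL and -0.12 in hnCD16 against CTRL, with the member calls as before. Without the filter on low counts, 10 members were called in FR2 against hnCD16, with GZMK added. With a library left out, the log2 values of GNLY ranged from 7.78 to 9.85 in FR1 against CTRL, 6.18 to 8.23 in FR2 against CTRL, 7.44 to 8.93 in FR1 against hnCD16 and 5.82 to 7.30 in FR2 against hnCD16, and those of GZMH from 11.36 to 12.23, 11.73 to 12.57, 10.39 to 11.29 and 10.72 to 11.63. Depth limits GZMK, and GZMH and GNLY in CTRL and hnCD16.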
